A study of Mus musculus with 15 samples.

Results

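Otx2, Pou3f1, Zic2, Zic5, Sall2, Sox3, Foxd3 and Lin28b, 8 regulators that mark the formative epiblast, were followed through 5 groups of mouse RNA-seq libraries. They were picked by name, and all 8 were found among the 55471 gene IDs of the count tables. Of these, 7 encode transcription factors, and Lin28b encodes an RNA-binding protein. Embryoid bodies (EBs, aggregates that differentiate in suspension) of an E14 line whose endogenous NSD1 carries a dTAG degron were grown for 6 days, either with 500 nM dTAG-13 throughout or nontreated. The same knock-in line was also profiled as nontreated embryonic stem cells (mESCs). Wild-type E14 mESCs, which carry no tag, had 500 nM dTAG-13 for 72 h or no treatment. All mESCs grew in 2i/LIF, a medium in which MEK and GSK3 inhibitors and the cytokine LIF hold them in the naive state. EBs grew in GMEM with serum. NSD1 is a histone H3K36 methyltransferase, and dTAG-13 recruits a ubiquitin ligase to tagged proteins so that they are degraded. How many clones the knock-in line represents is not given in the labels, and no EBs of untagged cells were analysed here. Each group had 3 libraries that the labels call biological replicates without further detail, so a p-value speaks only of the spread among these samples.

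Naive embryonic stem cells resemble the epiblast before implantation. After implantation the epiblast passes through a formative stage, in which naive factors are lost, lineage genes are not yet on, and the cells become able to respond to germ layer signals. OTX2 and POU3F1 are among the first transcription factors to appear in that transition, ZIC2 and FOXD3 act at enhancers that are switched then, and LIN28 proteins hold back the let-7 microRNAs that favour differentiation. Several of these genes are used again later, in neural plate and neural crest.

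Library totals ran from 18704591 to 29103958 gene counts. In each group the library with the shortest read-weighted exon length is said here to stand apart, a rule that marks 1 library per group. These are library 3 of dTAG-13 EBs, of nontreated EBs and of dTAG-13 wild-type mESCs, and library 1 of nontreated NSD1-dTAG mESCs and of nontreated wild-type mESCs. Their lengths were 4.99 to 5.50 kb, and those of all other libraries 5.71 to 5.93 kb. Results that rest on the libraries that stand apart are given with and without them. The targeted gene, Nsd1, had 329, 306 and 230 CPM (the gene's counts scaled to the library's total, the usual unit of level in count data) in dTAG-13 EBs and 261, 243 and 209 CPM in nontreated EBs. Its mRNA did not differ between them at the threshold (log2 0.26, adjusted p = 0.351), and was called higher without the libraries that stand apart (log2 0.32, adjusted p = 0.0157). Neither value bears on the protein that dTAG-13 acts on.

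In nontreated EBs 7 of the 8 genes rose and Foxd3 fell, relative to mESCs of the same line. Day 6 nontreated EBs were set against nontreated mESCs of the same NSD1-dTAG line with edgeR's quasi-likelihood test, with p-values adjusted by the Benjamini-Hochberg method over all 15193 genes tested and called below 0.05. All 8 genes were called, against 59.5% of all genes tested, of which 33.1% were higher and 26.3% lower. Calls were thus common in this comparison, and the sizes say more than the count: the median log2 fold change was 3.33 over the 8 genes and 0.02 over all genes. Libraries of the 2 groups did not overlap for any of the 8 genes, as for 67.7% of all genes. RNA came from whole cultures, so fewer cells that express a gene and less of its RNA per cell cannot be told apart. Medium, culture form and time changed along with the stage.

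Otx2, a paired-type homeodomain factor that drives the exit from the naive state, had 136, 133 and 149 CPM in nontreated EBs and 6.53, 6.76 and 5.90 CPM in NSD1-dTAG mESCs. The EB libraries lay close to each other and far above the mESC libraries, with a log2 fold change of 4.30 (SE 0.13, adjusted p = 3.48e-07), a 19.7-fold difference. Pou3f1, which encodes the POU factor OCT6, showed the largest change of the 8 genes: it had 101, 80.2 and 144 CPM in nontreated EBs and 1.79, 1.73 and 1.38 CPM in NSD1-dTAG mESCs. That is a log2 fold change of 5.90 (SE 0.28, adjusted p = 1.33e-06), or 59.8-fold. The EB libraries spread more for Pou3f1 than for Otx2, with library 3 highest.

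Otx2 lies on chromosome 14 (GRCm38 chr14:48657677-48673819, minus strand) and has several start sites in RefSeq. Of 9 RefSeq promoter entries (GRCm38.p6) found for 5 of the 8 genes, a single one, of Otx2, holds TAATCC, the word bound by OTX-type homeodomains, on either strand. Among all 32851 promoters of the same length, 7.06% hold it. It is shown, chr14:48665060-48665359 on the minus strand, with each of its 16 CG dinucleotides in capitals. The word lies on the reverse strand, as ggatta in the letters below:

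Otx2 promoter: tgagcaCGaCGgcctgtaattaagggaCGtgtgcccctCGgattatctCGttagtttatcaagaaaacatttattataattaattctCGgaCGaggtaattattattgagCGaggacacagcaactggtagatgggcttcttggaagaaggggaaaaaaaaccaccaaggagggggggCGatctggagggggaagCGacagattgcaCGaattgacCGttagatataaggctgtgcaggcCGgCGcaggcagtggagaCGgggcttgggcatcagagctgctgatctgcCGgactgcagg

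TATAAA occurred in entries of Otx2 and Sall2 and in 13.6% of all promoters. The POU octamer ATGCAAAT, in 1.74% of all promoters, and the TCF/LEF-type word CTTTGAA, in 5.14%, were in none of the 9 entries. Both strands were searched, and none of these words contains another. A match is a description of letters and no measure of binding.

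**Figure D1:**
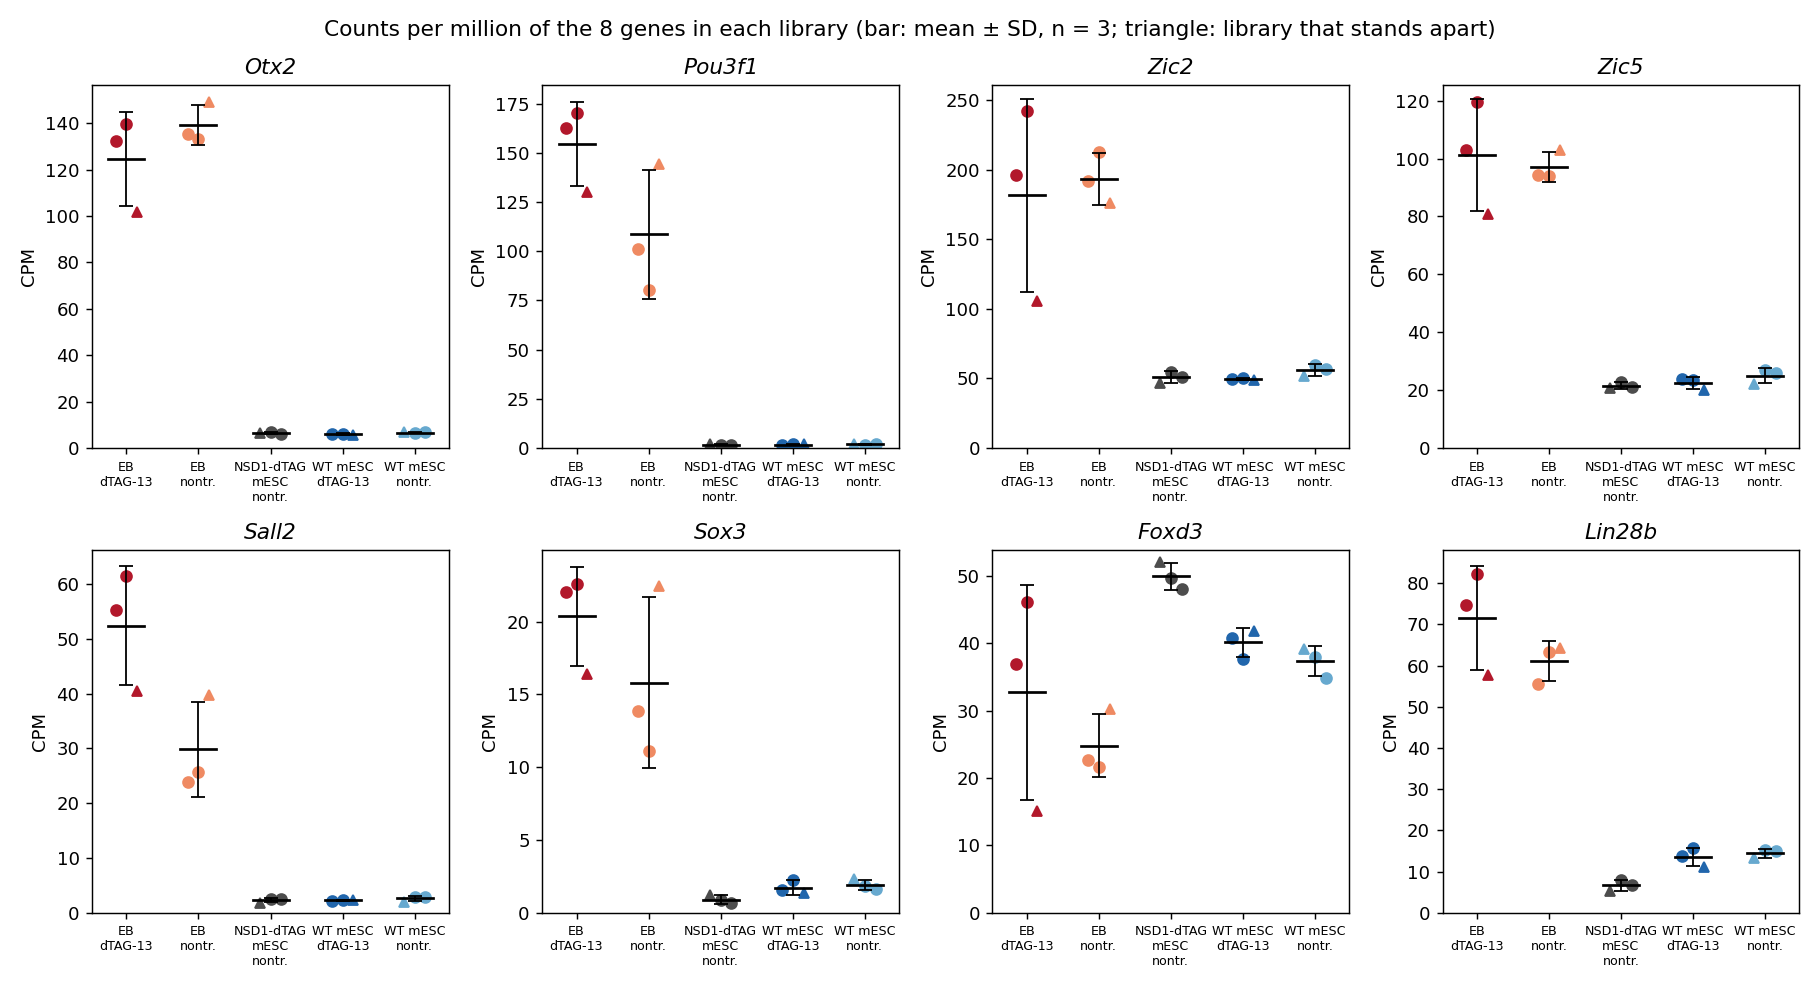
CPM (vertical axes, each starting at 0) of the 8 genes in every library, by group (horizontal axes); black lines are means ± SD over 3 libraries and triangles mark the libraries that stand apart. All genes but Foxd3 are higher in both EB groups than in every mESC library, and library 3 of the dTAG-13 EBs is the lowest of its group in all 8 panels.

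The Zic genes, which encode zinc-finger factors, already had more than 20 CPM in every mESC library. Zic2, needed for forebrain and neural tube development, had 192, 213 and 176 CPM in nontreated EBs and 46.6, 55.0 and 51.1 CPM in NSD1-dTAG mESCs (log2 1.78, SE 0.11, adjusted p = 5.42e-06). Zic5 had 94.2, 93.8 and 103 CPM in nontreated EBs and 20.7, 22.9 and 21.1 CPM in NSD1-dTAG mESCs (log2 2.03, SE 0.11, adjusted p = 2.14e-06). They rose 3.45-fold and 4.07-fold, the smallest rises among the 7 genes, and replicate libraries lay close together. The pair is divergent on chromosome 14, with start sites 9.76 kb apart (Zic2 at chr14:122475435-122479852 on the plus strand and Zic5 at chr14:122456795-122465677 on the minus strand). Per kb of merged exon Zic2 stood above Zic5 in every library: the ratio was 2.97 ± 0.654 in dTAG-13 EBs, 3.41 ± 0.48 in nontreated EBs and 4.01 ± 0.155 in NSD1-dTAG mESCs (SD, n = 3 each). The transcript 2610035F20Rik starts 236 bp from Zic2 on the other strand. It rose too, with 0.969, 0.926 and 1.34 CPM in nontreated EBs and 0.103, 0.036 and 0.0407 CPM in NSD1-dTAG mESCs (log2 3.90, adjusted p = 0.000124), at a level far below that of Zic2.

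Sall2, a spalt-like zinc-finger factor of neural and eye development, had 23.9, 25.7 and 39.8 CPM in nontreated EBs and 1.82, 2.44 and 2.44 CPM in NSD1-dTAG mESCs (log2 3.59, SE 0.25, adjusted p = 7.32e-06). Sox3, a SOXB1 factor of epiblast and neural progenitors, had 13.9, 11.1 and 22.4 CPM in nontreated EBs and 1.20, 0.863 and 0.651 CPM in NSD1-dTAG mESCs (log2 3.96, SE 0.35, adjusted p = 2.98e-05). EB library 3 was the highest for both genes, and every EB library was above every mESC library. Sox2, the SOXB1 factor shared by naive and formative cells, fell over the same step (log2 -0.93, adjusted p = 0.000205). The level of Sox3 relative to Sox2 per kb was 0.0449 ± 0.0184 in nontreated EBs and 0.00146 ± 0.000374 in NSD1-dTAG mESCs (SD, n = 3 each), so Sox3 remained the minor of the pair.

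Foxd3, a forkhead factor needed for the epiblast and for neural crest, was the exception. It had 22.6, 21.6 and 30.2 CPM in nontreated EBs and 52.1, 49.7 and 48.1 CPM in NSD1-dTAG mESCs. All EB libraries were below all mESC libraries, with a log2 fold change of -1.16 (SE 0.15, adjusted p = 0.000287), which is 2.23-fold lower in EBs. Gm12688, a noncoding RNA that starts 1316 bp from Foxd3 on the opposite strand, fell as well (log2 -1.35, SE 0.32, adjusted p = 0.00698). The RefSeq promoter of Foxd3 (chr4:99656049-99656348, plus strand, GRCm38.p6) is the most CG-rich of the 9 entries. It is shown with its 25 CG dinucleotides in capitals, against a median of 7 over all promoters of this length; 81.6% of them have fewer:

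Foxd3 promoter: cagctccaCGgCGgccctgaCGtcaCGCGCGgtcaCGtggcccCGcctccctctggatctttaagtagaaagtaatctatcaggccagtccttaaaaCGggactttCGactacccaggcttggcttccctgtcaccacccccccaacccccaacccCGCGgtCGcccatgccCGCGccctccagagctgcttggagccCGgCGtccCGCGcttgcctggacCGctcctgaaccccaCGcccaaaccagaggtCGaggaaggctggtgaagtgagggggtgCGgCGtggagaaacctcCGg

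Lin28b, which encodes a protein that binds let-7 precursors and blocks their maturation, had 55.4, 63.3 and 64.3 CPM in nontreated EBs and 5.22, 7.84 and 6.80 CPM in NSD1-dTAG mESCs. The groups were far apart, with a log2 fold change of 3.06 (SE 0.16, adjusted p = 2.08e-06), or 8.36-fold. Its paralog Lin28a, already abundant in mESCs, rose far less, with 495, 539 and 616 CPM in nontreated EBs and 339, 363 and 339 CPM in NSD1-dTAG mESCs (log2 0.52, SE 0.12, adjusted p = 0.00501). The level of Lin28b per kb was 0.0491 ± 0.00287 of that of Lin28a in nontreated EBs and 0.00839 ± 0.00142 in NSD1-dTAG mESCs (SD, n = 3 each).

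Lin28b is also a let-7 target in mammals, and it alone of the 8 genes carries the let-7 seed match CTACCTC in the longest annotated 3′ UTR. Mature let-7 was not measured, since the libraries hold poly(A) RNA. Family members from RefSeq (GRCm38.p6), let-7a of chr13:48538239-48538260 (minus strand), let-7g of chr9:106178846-106178867 (plus) and let-7i of chr10:122985698-122985719 (minus), are given as examples of the seed searched for, with the shared seed, bases 2 to 8, in capitals, followed by the 4 matching sites in the Lin28b UTR (GENCODE M21, GRCm38, transcript of 4445 UTR bases, chromosome 10, minus strand), with the match in capitals:

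let-7a-5p: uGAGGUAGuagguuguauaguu
let-7g-5p: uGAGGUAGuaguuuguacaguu
let-7i-5p: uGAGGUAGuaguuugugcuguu
site at chr10:45381022-45381043: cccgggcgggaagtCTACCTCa
site at chr10:45378648-45378669: atacttgttagtaaCTACCTCt
site at chr10:45378476-45378497: tttacagcacatggCTACCTCc
site at chr10:45377060-45377081: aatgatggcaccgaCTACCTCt

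The site nearest the coding sequence is followed by an A, a context known to favour microRNA targeting, and the other sites are not. Other genes of the LIN28 and let-7 axis moved in both directions: of 14, 7 rose and 2 fell in nontreated EBs against NSD1-dTAG mESCs. Over all genes tested 33.1% were called higher and 26.3% lower. The let-7 targets Hmga2 (log2 1.59, adjusted p = 0.00768), Arid3b (log2 1.39, adjusted p = 0.000645) and Igf2bp2 (log2 1.35, adjusted p = 0.000153) rose. Dis3l2, the exonuclease that degrades uridylated let-7 precursors, rose less (log2 0.57, adjusted p = 0.00293), and the cyclin gene Ccnd1 fell (log2 -1.16, adjusted p = 4.19e-05). Trim71, whose UTR holds 4 seed matches, fell too (log2 -0.59, adjusted p = 0.0247). Igf2bp1, with 4 matches, and Igf2bp3, with 1, were not called (log2 -0.24 and -0.03). The genes with seed matches thus did not share one direction.

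**Figure D2:**
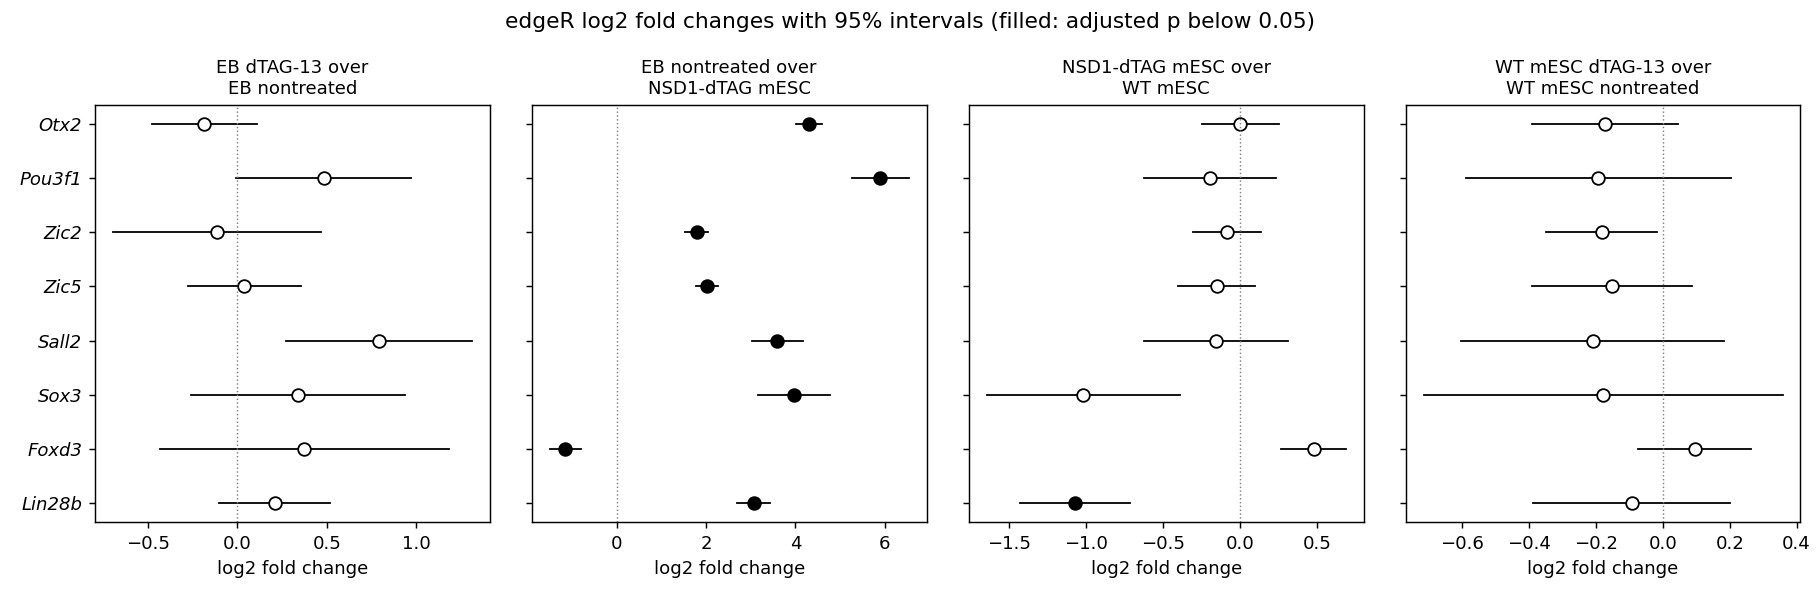
Log2 fold changes of the 8 genes (points) with 95% intervals (lines) in 4 comparisons, from edgeR; filled points have an adjusted p below 0.05. In nontreated EBs against NSD1-dTAG mESCs all 8 genes were called, Foxd3 alone in the lower direction, while in the other comparisons Lin28b in NSD1-dTAG against wild-type mESCs was the single call.

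Across the 5 groups the order of levels had the same outline for 7 of the genes: both EB groups lay above all 3 mESC groups, with no EB library at or below any mESC library. Otx2, for instance, ranged from 102 to 149 CPM in the 6 EB libraries and from 5.56 to 6.90 CPM in the 9 mESC libraries. Neighbouring groups within a stage overlapped, except for Sall2 between the EB groups and for Sox3 and Lin28b between NSD1-dTAG mESCs and wild-type dTAG-13 mESCs. Foxd3 ran from 15.1 to 46.2 CPM in EBs and from 34.9 to 52.1 CPM in mESCs, so its dTAG-13 EB libraries reached into the mESC range. Its 5 groups, from high to low mean, were NSD1-dTAG mESCs at 49.9 CPM, wild-type dTAG-13 mESCs at 40.1 CPM, wild-type nontreated mESCs at 37.4 CPM, dTAG-13 EBs at 32.7 CPM and nontreated EBs at 24.8 CPM.

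Per kb of merged exon, the scale on which genes can be set beside each other, Zic2 led in EBs with 63.1 ± 24.1 CPM per kb in dTAG-13 EBs and 67.2 ± 6.51 CPM per kb in nontreated EBs. Sall2 and Lin28b were the lowest there, with 9.65 ± 1.98 and 7.90 ± 1.39 CPM per kb in dTAG-13 EBs and 5.48 ± 1.61 and 6.73 ± 0.536 CPM per kb in nontreated EBs. In NSD1-dTAG mESCs Foxd3 came first, with 21.5 ± 0.861 CPM per kb, ahead of Zic2 with 17.7 ± 1.46 CPM per kb, and Sall2 last with 0.412 ± 0.0662 CPM per kb (SD, n = 3 each).

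**Figure D3:**
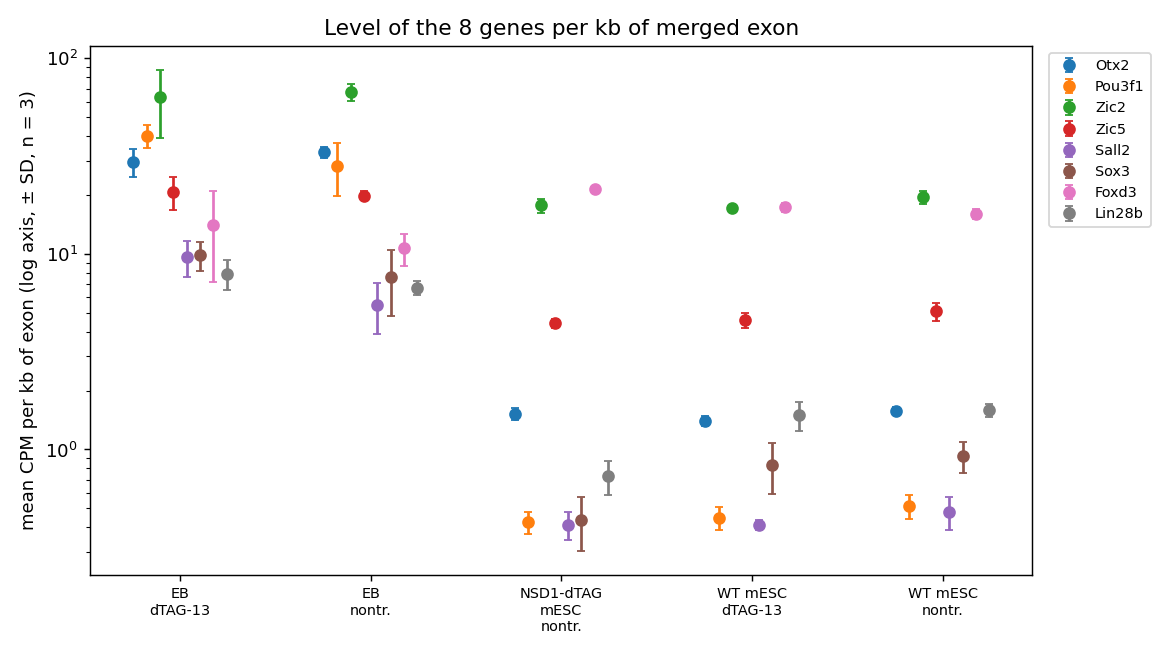
Mean CPM per kb of merged exon (log axis) of the 8 genes in the 5 groups, with SD over 3 libraries as bars. Zic2 is highest in both EB groups, and Foxd3 and Zic2 stand well above the other genes in all mESC groups.

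Most genes on a list of other formative and primed epiblast genes rose as well. This list and the list of naive genes were chosen with earlier results of these data known, so their counts are a description only. Of 18 on the formative list, 15 rose in nontreated EBs against NSD1-dTAG mESCs, with a list median of 2.42. A single gene, the ETS factor gene Etv4 (log2 -1.62, adjusted p = 1.78e-05), fell. Over all genes tested 33.1% were called higher and 26.3% lower. Pim2, a survival kinase gene, had 346, 364 and 713 CPM in nontreated EBs and 8.25, 8.88 and 9.49 CPM in NSD1-dTAG mESCs (log2 5.60, SE 0.32, adjusted p = 3.32e-06). Grhl2, an epithelial factor of the formative stage, rose by a log2 of 4.86 (adjusted p = 1.33e-06), and the de novo methyltransferase genes Dnmt3a and Dnmt3b rose by 3.60 (adjusted p = 3.45e-06) and 2.84 (adjusted p = 3.7e-05). The formative growth factor gene Fgf5 had 196, 223 and 186 CPM in nontreated EBs and 0, 0 and 0.0407 CPM in NSD1-dTAG mESCs. Naive genes went the other way: 13 of 14 fell and 1 rose, with Klf4 at a log2 of -4.76 and Zfp42 at -2.27 (adjusted p = 1.74e-06 and 1.38e-05).

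Relatives of the 8 genes did not share one direction. Of 17 family members 10 were tested, and 4 rose and 3 fell in nontreated EBs against NSD1-dTAG mESCs. Over all genes tested 33.1% were called higher and 26.3% lower, so these counts are near the common share. Sall3 (log2 -1.79, adjusted p = 0.000684) and Sall1 (log2 -0.77, adjusted p = 0.0119), spalt-like genes like Sall2, fell. Foxd4, a forkhead relative of Foxd3, was called higher, with 0.746, 1.18 and 0.855 CPM in nontreated EBs and no count in any mESC library.

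Day 6 EBs held other cell types as well. Marker genes of streak and mesoderm summed to 494, 787 and 296 CPM and those of visceral and extraembryonic endoderm to 404, 409 and 356 CPM in nontreated EBs, against 34.3 to 39.8 CPM and 6.80 to 8.09 CPM in NSD1-dTAG mESCs. Neuroectoderm markers summed to 257, 177 and 199 CPM in nontreated EBs and to 27.9 to 31.1 CPM in NSD1-dTAG mESCs. Most of the neuroectoderm sum was Nes, an intermediate filament gene with 245, 164 and 188 CPM in nontreated EBs. The neural plate factor genes Pax6 and Sox1 were below 7 CPM there. Pax6 was nonetheless called higher than in NSD1-dTAG mESCs (log2 4.69, adjusted p = 3.85e-06), and Sox1 was not called (log2 -0.56, adjusted p = 0.277). En2, another marker of this list, was called lower (log2 -3.57, adjusted p = 7.25e-07). Of the 4 neuroectoderm markers tested, 2 were called higher and 1 lower. Neural crest markers summed to 42.0, 46.3 and 30.2 CPM in nontreated EBs and to 28.2 to 35.4 CPM in NSD1-dTAG mESCs. Of 5 tested, 3 were called higher: Ets1 (log2 6.61, adjusted p = 1.5e-06), Sox9 (log2 6.48, adjusted p = 0.000314) and Sox10 (log2 5.57, adjusted p = 0.000116). Tfap2a was called lower (log2 -3.61, adjusted p = 3.42e-05). The neural crest factor gene Sox10 had at most 1.04 CPM in nontreated EBs. The part that these cells have in the EB levels of the 8 genes was not tested.

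In the fit of all 6 EB libraries edgeR called none of the 8 genes between dTAG-13 EBs and nontreated EBs, against 6.76% of the 15236 genes tested, of which 3.98% were higher and 2.78% lower. At an unadjusted p below 0.05 there was 1 of the 8, Sall2, and 3313 of all genes, and DESeq2 called 1 of the 8. Same-numbered EB libraries deviated together, and libraries 1 and 2 did so less strongly across numbers (correlations 0.175 and 0.103). With the replicate number as a block 1834 genes were called in place of 1030, again none of the 8. The groups overlapped for all 8 genes on the TMM-scaled values, while 27.7% of all genes did not overlap. The median log2 fold change was 0.27 over the 8 genes and -0.01 over all genes. The 95% intervals still allow sizeable changes, for Foxd3 from -0.43 to 1.18 and for Zic2 from -0.69 to 0.47.

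Sall2 came nearest to a call. It had 55.3, 61.4 and 40.5 CPM in dTAG-13 EBs and 23.9, 25.7 and 39.8 CPM in nontreated EBs. The lowest treated library was just above the highest nontreated one on plain CPM, and they overlapped after TMM scaling (log2 0.79, SE 0.23, 95% interval 0.27 to 1.31, adjusted p = 0.0804). Sall2 was called with DESeq2 (adjusted p = 0.00943), with no filter on low counts (adjusted p = 0.0108), with all 15 libraries in the fit (adjusted p = 0.0121), without nontreated EB library 3 (log2 1.07, adjusted p = 0.0145) and without dTAG-13 EB library 3 (log2 0.94, adjusted p = 0.0444). Pou3f1 had 163, 170 and 130 CPM in dTAG-13 EBs and 101, 80.2 and 144 CPM in nontreated EBs, where library 3 lay within the treated range (log2 0.48, SE 0.21, adjusted p = 0.234). Without that nontreated library it was called as well (log2 0.75, adjusted p = 0.0303).

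Sox3 had 22.1, 22.6 and 16.4 CPM in dTAG-13 EBs and 13.9, 11.1 and 22.4 CPM in nontreated EBs (log2 0.34, SE 0.26, adjusted p = 0.523). Foxd3 had 36.9, 46.2 and 15.1 CPM in dTAG-13 EBs and 22.6, 21.6 and 30.2 CPM in nontreated EBs (log2 0.38, SE 0.35, adjusted p = 0.611). Both show the same layout: libraries 1 and 2 were higher with dTAG-13, and library 3 was lower. Lin28b, with 74.8, 82.3 and 57.7 CPM in dTAG-13 EBs and 55.4, 63.3 and 64.3 CPM in nontreated EBs, followed it too (log2 0.21, SE 0.14, adjusted p = 0.437).

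Otx2 had 133, 140 and 102 CPM in dTAG-13 EBs and 136, 133 and 149 CPM in nontreated EBs (log2 -0.18, SE 0.13, adjusted p = 0.474). Zic2 had 197, 242 and 106 CPM in dTAG-13 EBs and 192, 213 and 176 CPM in nontreated EBs (log2 -0.11, SE 0.25, adjusted p = 0.852). Zic5 had 103, 119 and 81.0 CPM in dTAG-13 EBs and 94.2, 93.8 and 103 CPM in nontreated EBs (log2 0.04, SE 0.14, adjusted p = 0.911). For Zic2 and Zic5 libraries 1 and 2 were again higher with dTAG-13 than the same-numbered nontreated libraries, and library 3 was lower. For Otx2 library 2 was higher and libraries 1 and 3 were lower.

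Libraries within each EB group differed from each other in the same way for the whole set. In dTAG-13 EBs library 2 was the highest and library 3 the lowest for all 8 genes, whereas library 3 was the lowest for 43.9% of all genes tested. In nontreated EBs library 3 was the highest for 7 of the 8 genes and the lowest for Zic2, against 36.7% and 44.0% of all genes. Without library 3 of both groups, 5 of the 8 genes were called higher and none lower, where 10.7% of all 15463 genes tested were called higher and 10.2% lower. They were Sall2 (log2 1.22, adjusted p = 0.000284), Foxd3 (log2 0.89, adjusted p = 0.0022), Pou3f1 (log2 0.86, adjusted p = 0.00192), Sox3 (log2 0.82, adjusted p = 0.00454) and Lin28b (log2 0.39, adjusted p = 0.0137). Zic5 (log2 0.23, adjusted p = 0.0788), Zic2 (log2 0.10, adjusted p = 0.516) and Otx2 (log2 0.00, adjusted p = 0.982) were not called. That fit rests on 2 libraries a group.

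**Figure D4:**
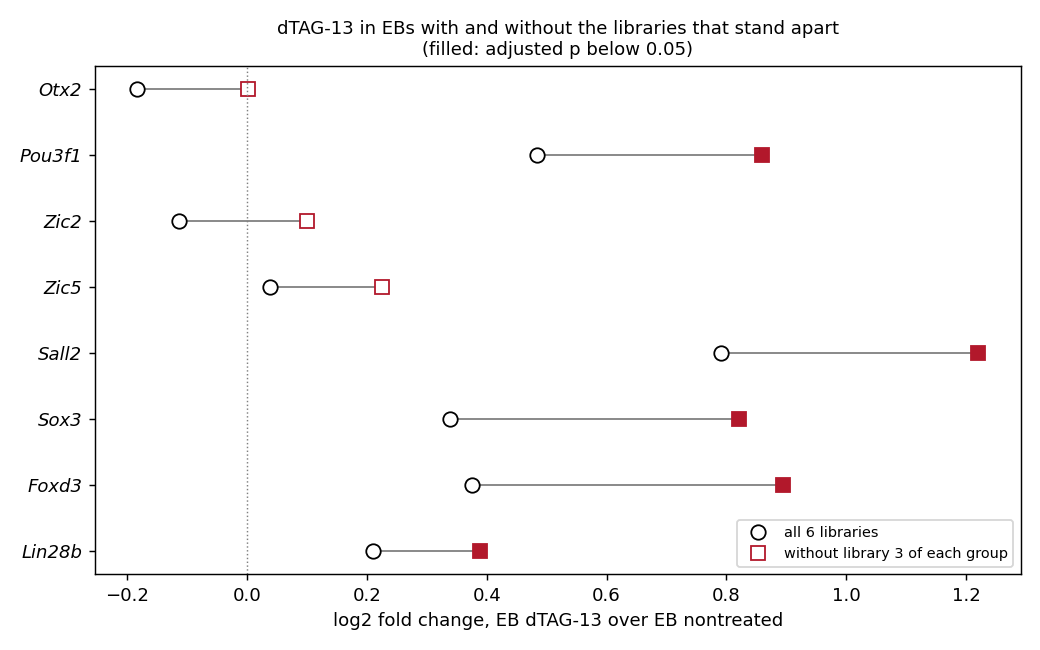
Log2 fold change of the 8 genes between dTAG-13 EBs and nontreated EBs (horizontal axis) with all 6 libraries (circles) and without library 3 of each group (squares); filled symbols have an adjusted p below 0.05. Every gene moves to the right when the libraries that stand apart are left out, and 5 then pass the threshold.

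Markers of other cell types moved between the same EB libraries. In the fit of all 6 libraries 3.98% of all genes tested were called higher and 2.78% lower. Streak and mesoderm markers summed to 60.6, 122 and 33.2 CPM in dTAG-13 EBs and to 494, 787 and 296 CPM in nontreated EBs, and 4 of the 7 tested were called lower, among them the streak factor gene Eomes (log2 -2.06, adjusted p = 0.0208). Visceral and extraembryonic endoderm markers summed to 153, 126 and 385 CPM in dTAG-13 EBs and to 404, 409 and 356 CPM in nontreated EBs, with 2 of 12 called lower. Without the libraries that stand apart 7 of 8 streak and mesoderm markers and 9 of 12 endoderm markers were called lower. The treated library with the highest endoderm sum, library 3, is the one in which the 8 genes were lowest. Pluripotent cell markers summed to 1552, 1532 and 1411 CPM in dTAG-13 EBs and to 1722, 1755 and 1846 CPM in nontreated EBs. Of these markers 2 of 5 were called lower, Zfp42 among them, and 3 of 5 without the libraries that stand apart. Sox2 was not called (log2 0.02, adjusted p = 0.934). Neuroectoderm markers summed to 228, 274 and 196 CPM in dTAG-13 EBs and to 257, 177 and 199 CPM in nontreated EBs. Of 4 tested, Pax6 and En2 were called lower. Nes (log2 0.16, adjusted p = 0.661) and Sox1 (log2 0.58, adjusted p = 0.504) were not called. Neural crest markers summed to 32.0, 33.6 and 39.4 CPM in dTAG-13 EBs and to 42.0, 46.3 and 30.2 CPM in nontreated EBs. Of 5 tested, Tfap2a was called lower, and Sox10 alone had a positive log2 (0.63, adjusted p = 0.232). Without the libraries that stand apart 3 of 5 were called lower in either list. TMM-scaled means in nontreated EBs were 2.14 CPM for En2 and 2.85 CPM for Tfap2a. The part of these shifts in the levels of the 8 genes was not tested.

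Among the other formative and primed genes, 1 of 18 was called higher and 2 lower in dTAG-13 EBs. The shares over all genes tested were 3.98% higher and 2.78% lower. Tcf7l1, a repressor of the WNT pathway, rose by a log2 of 0.52 (adjusted p = 0.0352). Cdh2, the N-cadherin gene, fell by 1.81 on the log2 scale (SE 0.35, adjusted p = 0.0234), with no treated library above 29.3 CPM and no nontreated one below 48.7 CPM. With the replicate number as a block 1 was higher and 5 were lower, and without the libraries that stand apart 6 were higher and 5 lower. Of the naive genes 6 of 14 were called lower with dTAG-13 and none higher, among them Klf4 (log2 -1.16, adjusted p = 0.0234) and Zfp42 (log2 -1.14, adjusted p = 0.0155), and 11 of 14 were called lower without the libraries that stand apart.

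Without dTAG-13, mESCs of the knock-in line had a lower level of Lin28b than wild-type mESCs. Nontreated NSD1-dTAG mESCs were set against nontreated wild-type mESCs, and 1 of the 8 genes was called, against 1.86% of the 13895 genes tested, of which 0.547% were higher and 1.32% lower. Lin28b had 5.22, 7.84 and 6.80 CPM in NSD1-dTAG mESCs and 13.2, 15.2 and 14.9 CPM in wild-type mESCs. The groups did not overlap, and the log2 fold change was -1.07 (SE 0.15, adjusted p = 0.0252), 2.10-fold lower in the knock-in line. Wild-type dTAG-13 mESCs, with 13.8, 15.6 and 11.2 CPM, were also above every NSD1-dTAG library. The call was lost when any library but NSD1-dTAG library 1 was left out: the adjusted p was 0.0642 and 0.0984 without NSD1-dTAG library 2 or 3, and 0.0956, 0.147 and 0.145 without wild-type library 1, 2 or 3, with log2 values between -1.19 and -0.93 over all such omissions. Without NSD1-dTAG library 1 it was 0.000887, and with scaling to ERCC spike-ins it was 0.446 (log2 -1.15).

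Sox3 and Foxd3 were the other genes whose groups did not overlap, 3 of 8 in all against 21.8% of all genes. Sox3 had 1.20, 0.863 and 0.651 CPM in NSD1-dTAG mESCs and 2.29, 1.85 and 1.60 CPM in wild-type mESCs (log2 -1.02, SE 0.26, adjusted p = 0.125). Foxd3 had 52.1, 49.7 and 48.1 CPM in NSD1-dTAG mESCs and 39.1, 38.0 and 34.9 CPM in wild-type mESCs (log2 0.48, SE 0.09, adjusted p = 0.0533). Same-numbered libraries deviated together here, but libraries 2 and 3 did so across numbers too (correlations 0.251 and 0.223, against 0.289 and 0.285). With the replicate number as a block both genes were called, Sox3 at an adjusted p of 0.031 and Foxd3 at 0.0173. In that fit 2.1% of all genes were higher and 3.55% lower, 785 genes in place of 259. Both genes were also called without NSD1-dTAG library 1, Sox3 at 0.00996 and Foxd3 at 0.00487. The other 5 genes lay between a log2 of -0.20 for Pou3f1 and 0.00 for Otx2 and overlapped. Without the libraries that stand apart Foxd3 was called higher and Lin28b, Sox3 and Zic5 lower, Zic5 with a log2 of -0.23 (adjusted p = 0.0146), where 11.5% of all genes were higher and 11.2% lower. Of 17 other formative genes tested, 3 were lower in the knock-in line: Dnmt3a (log2 -1.14, adjusted p = 0.0265), Lef1 (log2 -0.62, adjusted p = 0.0268) and Sox11 (log2 -0.62, adjusted p = 0.0323). Without the libraries that stand apart 5 were higher and 6 lower. Knock-in and clonal history cannot be told apart in this comparison.

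Wild-type mESCs carry no tagged protein for dTAG-13 to act on. None of the 8 genes was called between dTAG-13 and nontreated wild-type mESCs, as for 0% of the 13784 genes tested. Over all genes 229 had an unadjusted p below 0.05 with edgeR, and DESeq2 called 0, with 81 below 0.05 unadjusted. Of the 8 genes 7 had a negative log2 fold change, and the range was -0.21 for Sall2 to 0.10 for Foxd3. Otx2 and Zic2 did not overlap between the groups, 2 of 8 against 6.01% of all genes. Zic2 had 49.7, 50.4 and 48.6 CPM in dTAG-13 mESCs and 51.7, 60.0 and 56.7 CPM in nontreated mESCs (log2 -0.18, SE 0.07, unadjusted p = 0.0347, adjusted p = 1). Without the libraries that stand apart its adjusted p was 0.0439 (log2 -0.22), and 0.0866% of all genes were called lower.

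The dTAG-13 difference in EBs of the tagged line was set against that in untagged mESCs as an interaction. Stage, genotype, medium and length of treatment all differ between the 2 settings. None of the 8 genes was called with edgeR or DESeq2, against 2.88% of 15855 genes with edgeR, 1.6% higher and 1.27% lower, and 1 of the 8 had an unadjusted p below 0.05. That gene was Sall2 (log2 0.99, SE 0.34, adjusted p = 0.163). Without nontreated EB library 3, Sall2 (log2 1.28, adjusted p = 0.0148) and Pou3f1 (log2 0.95, adjusted p = 0.0486) were called. Without the libraries that stand apart 5 of the 8 genes were called higher, where 5.83% of all genes were: Sall2 (log2 1.60, adjusted p = 0.000232), Pou3f1 (log2 1.09, adjusted p = 0.046), Foxd3 (log2 0.78, adjusted p = 0.0046), Lin28b (log2 0.42, adjusted p = 0.0472) and Zic5 (log2 0.38, adjusted p = 0.0361).

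For each of the 8 genes, the genes nearest in pattern over all 15 libraries lay outside the set. Far more genes outside the set than within it were compared, so this does not measure how alike the 8 genes are. Likeness was the root mean square difference of centred log2(CPM + 0.5) over the 15 libraries. It was taken among 11857 protein-coding genes with a mean of at least 1 CPM, with clone and model names left out. Zic2 and Zic5 were the closest pair of the set (0.22), and Zic5 was the 13th nearest gene to Zic2. The 2 nearest genes were Adamts15 (0.157) and Pdlim3 (0.161) for Otx2 and Zfp334 (0.135) and Cfap300 (0.141) for Zic5. For Lin28b they were Fign and Fam102b, which were lower in NSD1-dTAG than in wild-type mESCs as well (log2 -1.31, adjusted p = 0.0204, and log2 -1.11, adjusted p = 0.0265). For Sall2 they were St6gal2 and Zfp467. The others were Pxdc1 and Chst1 for Pou3f1, Neto2 and Trim21 for Zic2, Sh3bgrl and Parp12 for Sox3, and Shank1 and Rcor2 for Foxd3. With a pseudocount of 2, which lessens the weight of low counts, 2 of these 16 genes were again among the nearest.

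Some of the 8 genes share exon sequence with a neighbour. Otx2 shares 154 bp of exon with Otx2os1 on the opposite strand, which had at most 0.56 CPM in any library. Pou3f1 shares 330 bp with the antisense gene Gm2164, which had at most 0.502 CPM. Which strand was counted is not stated, so reads of such pairs cannot be told apart. On the same strand Otx2 shares 168 bp with Gm49154, which had at most 0.149 CPM, and Foxd3 shares 89 bp with the microRNA gene Gm23366. Strand cannot separate reads of these same-strand pairs. The other genes lie at chr4:124656807-124660655 (Pou3f1, plus strand), chr14:52311172-52328762 (Sall2, minus), chrX:60891366-60893430 (Sox3, minus), chr4:99656299-99658622 (Foxd3, plus) and chr10:45376620-45486395 (Lin28b, minus) in GRCm38.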

How the data were processed

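Poly(A) RNA was sequenced in 15 libraries, 3 in each of 5 groups set by the labels. The deposited values are counts of reads per gene, 1 table per library, with no normalisation. Tools listed in the submitters' processing notes are STAR, bcl2fastq (2.20.0.422) and DESeq2 (1.30.0), and the builds listed are GRCm38.p6 and mm10. How reads were assigned to genes, and with which annotation, is not stated there. Of 55471 gene IDs, 55230 matched GENCODE M21 (GRCm38) without version numbers. The 92 ERCC rows stayed out of library sizes and tests and were 0 in EBs.

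Tests across genes used edgeR (4.0.16, R 4.3.3; quasi-likelihood F test, TMM factors, filterByExpr, Benjamini-Hochberg adjustment over all genes tested, called below 0.05), on the libraries of the groups compared, or 12 for the interaction. Printed CPM are counts over the library's gene total, without TMM factors. Per kb values divide by merged exon length. Tables and plots came from Python 3.11.15, with matplotlib 3.10.9 for drawing. The scripts were tested on simulated counts.

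The genes, lists and tests were chosen with earlier results of these data known. Named were the 8 genes, Nsd1, called members of each list by p, all other formative genes, the 2 nearest genes of each by likeness, and overlapping or divergent neighbours; some are left out for length, and 1 list gene is not reported here. Same-numbered libraries deviated together in the EB groups (correlations 0.228 to 0.373) and in NSD1-dTAG against wild-type mESCs (0.285 to 0.584). In every comparison of 2 groups the highest correlation (0.307 to 0.584) was between the libraries that stand apart, whatever their numbers. Some different-numbered libraries deviated together too, so equal numbers need not mark real pairs. Replicate libraries all differed by more than sampling noise. Alternatives were DESeq2 1.42.0, RLE size factors, no filter on low counts, a replicate block with and without a gene-length offset, all 15 libraries in the fit, ERCC scaling of mESCs, each library left out, and the libraries that stand apart left out. With 2 libraries in a group the spread is pooled over both groups.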

Additional observations from a re-analysis of the deposited data

How the results depend on the processing

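In nontreated EBs against NSD1-dTAG mESCs all 8 genes kept their call and direction under each alternative run. The split of all called genes was 5035 higher and 4002 lower, and 4371 and 5767 with a replicate block and gene-length offset, which moved the median of all genes to -0.17 (log2). The 8 genes kept their directions there. For dTAG-13 against nontreated EBs, 1030 genes were called, and 1626 with DESeq2, 1834 with the replicate block, 1840 with that block plus the length offset, 1931 with all 15 libraries in the fit, 3233 without the libraries that stand apart, and 182 to 1293 with single libraries left out. Of the 8 genes 1 was called higher with no low-count filter, with DESeq2 and with all 15 libraries, 5 without the libraries that stand apart, and 0 to 2 with single libraries left out. Not called, and turned in sign, were Otx2 (0.0023) and Zic2 (0.10) without the libraries that stand apart. With single libraries left out Zic2 ran from -0.37 to 0.16 and Zic5 from -0.095 to 0.17.

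For NSD1-dTAG against wild-type mESCs, 259 genes were called, and 528 with DESeq2, 785 with the replicate block, 1413 with the block and offset, 500 with all 15 libraries, 3123 without the libraries that stand apart, 1 with ERCC scaling, and 1 to 1248 with single libraries left out. Of the 8 genes, 1 was called higher with DESeq2, with either block and without the libraries that stand apart, and 0 to 1 with single libraries left out. Called lower were 2 with either block, 3 without the libraries that stand apart, 0 with ERCC scaling, and 0 to 2 with single libraries left out. Otx2, never called, had -0.0013 with no low-count filter, -0.017 without the libraries that stand apart, -0.13 with ERCC scaling and -0.031 to 0.067 with single libraries left out.

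For dTAG-13 in wild-type mESCs 16 genes were called without the libraries that stand apart, 1 of the 8 lower, and Sox3 turned to 0.13; Lin28b ran from -0.20 to 0.029 with single libraries left out. Same-numbered libraries did not deviate together there (correlations -0.288 to 0.233) or between EBs and mESCs (-0.268 to 0.127), where the replicate block gave 0 and 7999 calls. The block changed no other call of the 8 genes than those of Sox3 and Foxd3.

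For the interaction 456 genes were called, and 915 with no low-count filter, 781 with DESeq2, 738 with the block and offset, 1897 without the libraries that stand apart, and 202 to 763 with single libraries left out. Of the 8 genes 1 was called with no low-count filter, 5 without the libraries that stand apart and 0 to 2 with single libraries left out. Otx2 turned to 0.10 without the libraries that stand apart and ran from -0.10 to 0.10 with single libraries left out. Zic2 had -0.013 with the block and -0.026 with the block and offset, and -0.20 to 0.33 with single libraries left out. Foxd3 ran from -0.060 to 0.61. Of the 16 nearest genes 2 were shared with a pseudocount of 2. TMM scaling moved 4 of 40 mean levels by more than 1 SD. The cause of these shifts was not tested.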
